A study of Mus musculus with 8 samples.

Results

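The genes examined here are 10 genes of melanocytes and pigment, taken by symbol from a table of 24612 genes measured in mouse skin: Slc24a5, Slc45a2, Tyr, Tyrp1, Dct, Pmel, Mlana, Mitf, Kit and Sox10. Each had 1 row in the table. They were chosen by name with their normalized values in the PBS, Bleomycin and Celastrol libraries already known, Slc24a5 among the genes furthest above PBS, so their levels are described here, and nothing is read from their calls in the fit across all genes. RNA was sequenced from skin homogenate of male C57BL/6 J mice whose treatment began at 6 weeks of age. All 8 libraries were of day 21. There were 2 libraries from mice injected under the skin with 0.1 mL of phosphate-buffered saline (PBS). Another 3 were from mice injected there with 0.1 mL holding 0.1 units of bleomycin, a DNA-damaging agent used to model skin fibrosis. The last 3 were from mice given celastrol, a plant triterpenoid, into the peritoneum at 1 or 2 mg/kg daily over 21 days. Which of these doses a celastrol mouse had, and whether it had bleomycin as well, is not given in the labels. Nor do they say that libraries of a group came from separate animals, so the spread given is that between libraries.

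Melanocytes make the pigment melanin inside organelles called melanosomes and hand these to keratinocytes, and in the hairy skin of mice they sit mainly in hair follicles. MITF is the transcription factor that drives the pigment programme, SOX10 acts above it, and the receptor KIT keeps melanocytes alive through its ligand KITL. Tyrosinase (Tyr), DCT and TYRP1 are the enzymes of melanin synthesis, PMEL forms the fibrils on which melanin is laid down, MLANA assists PMEL, and SLC24A5 and SLC45A2 are ion transport proteins of the pigment pathway whose loss lightens the coat. C57BL/6 mice carry the nonagouti allele and have black hair.

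The promoter sequences are shown because the pigment enzymes and Slc24a5 hold a common motif within the 250 bases before their RefSeq starts. Promoter entries (RefSeq, GRCm38.p6) were found for 6 of the 10 genes, Slc24a5, Tyr, Tyrp1, Dct, Mitf and Kit, and the 250 bases before each start were searched on both strands for the core of the M-box recognised by MITF (CATGTG), for the longer core that contains it (TCATGTG), and for an E-box (CACGTG). The longer core was found in Slc24a5, Tyr, Tyrp1 and Dct. The short core was not found in the 3 entries of Mitf or the 2 of Kit. The form CACGTG was found in no entry of the 6 genes. Of all 32851 promoter entries searched over the same length, 12.3% held the short core, 3.25% the longer core and 6.02% the form CACGTG. Each longer core is printed in capitals with 10 bases on either side, on the strand that carries it.
Slc24a5 (chr2:125068104-125068130, - strand): ttatgctgaaTCATGTGagcagtctcc
Tyr (chr7:87493518-87493544, - strand): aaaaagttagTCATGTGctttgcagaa
Tyrp1 (chr4:80834156-80834182, + strand): ggggagggagTCATGTGctgcctagta
Dct, distal (chr14:118052462-118052488, + strand): tttattgggcTCATGTGtcccagccaa
Dct, proximal (chr14:118052381-118052407, - strand): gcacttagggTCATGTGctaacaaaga
Distances are counted from the RefSeq start of each entry, which is 125068127 in Slc24a5, 87493512 in Tyr, 80834213 in Tyrp1 and 118052246 in Dct. The motif began 13 bases before that start in Slc24a5, on the opposite strand to the gene, 22 bases before it in Tyr and 47 before it in Tyrp1. Dct held it at 232 bases before the start on the opposite strand and at 151 on its own. The deposited table starts Slc24a5 3 bases and Tyrp1 90 bases further upstream than RefSeq, so the Tyrp1 motif lies inside the gene as the table gives it. The start regions of Slc24a5 and Tyr are given in the direction of the gene, up to the last base before the earlier of the RefSeq and table starts, with the short core in capitals on either strand.
Slc24a5 (chr2:125067877-125068123, + strand): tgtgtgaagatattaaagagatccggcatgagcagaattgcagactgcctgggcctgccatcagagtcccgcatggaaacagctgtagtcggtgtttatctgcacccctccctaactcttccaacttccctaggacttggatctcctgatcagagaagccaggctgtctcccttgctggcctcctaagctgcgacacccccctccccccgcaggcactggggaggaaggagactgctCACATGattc
Tyr (chr7:87493513-87493762, - strand): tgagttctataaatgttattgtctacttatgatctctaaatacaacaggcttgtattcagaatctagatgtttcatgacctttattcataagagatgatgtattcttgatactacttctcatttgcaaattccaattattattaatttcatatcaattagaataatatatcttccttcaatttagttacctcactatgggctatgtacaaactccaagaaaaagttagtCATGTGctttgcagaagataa
A match is a stretch of letters and not a measured binding site.

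Slc24a5, a potassium-dependent sodium-calcium exchanger of the melanosomal pathway (chromosome 2, 125068124 to 125088677, + strand, GRCm38), was listed at 0 in both PBS libraries. Its normalized values were 33.7, 81.0 and 66.1 in Bleomycin 2, 3 and 4 and 27.9, 87.7 and 107 in Celastrol 2, 3 and 5. Every bleomycin and celastrol library thus lay above both PBS libraries, while the bleomycin libraries (60.3 ± 24.2, SD, n = 3) and the celastrol libraries (74.4 ± 41.4, n = 3) overlapped. No fold is given against PBS, since both PBS values were 0. The table holds no counts, and the value of 3 reads was estimated at 2.09 in PBS 2 and 3.31 in PBS 3. Of 23185 genes tested, 195 were listed at 0 in both PBS libraries, and 10 of these (0.0431% of the genes tested) were above 3 reads in the other 6 libraries. The 3′ part of Slc24a5 overlaps Myef2 on the other strand, and 39.5% of its exon bases (921 of 2330) are also exon bases of Myef2 in GENCODE M21. Myef2 was read at 491 to 735 in PBS, 538 to 710 in bleomycin and 517 to 1073 in celastrol libraries. Whether counting used the strand is not given in the sources used here, and its part in the Slc24a5 values was not tested.

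Slc45a2, a transporter that supports melanosome pH (chromosome 15, 11000721 to 11029233, + strand), was close to the limit of detection. It was listed at 0 in both PBS libraries, in Bleomycin 3, Celastrol 2 and Celastrol 3. The remaining values were 4.82 in Bleomycin 2, 2.94 in Bleomycin 4 and 17.8 in Celastrol 5. It reached 10 in 1 library and was therefore left out of the fit across genes, which left 9 of the 10 genes in it.

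The pigment enzymes were read in every library. Tyrp1, an enzyme of black melanin (chromosome 4, 80834123 to 80851719, + strand), had values of 41.0 and 46.3 in PBS 2 and 3, of 129, 107 and 197 in Bleomycin 2, 3 and 4, and of 126, 234 and 350 in Celastrol 2, 3 and 5. The PBS libraries were below all others, with bleomycin and celastrol overlapping. The bleomycin mean was 3.30 times and the celastrol mean 5.42 times that of PBS, and on the scale of log2(value + 1) the fitted difference from PBS was 1.66 ± 0.54 (SE) for bleomycin and 2.30 ± 0.54 for celastrol.

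Dct, dopachrome tautomerase (chromosome 14, 118012790 to 118052244, - strand), stood at 274 and 477 in PBS, at 351, 563 and 573 in bleomycin and at 741, 495 and 616 in celastrol libraries. Celastrol lay above PBS without overlap, though PBS 3 at 477 and Celastrol 3 at 495 were close, and bleomycin overlapped with both other groups. The fitted difference of Dct was 0.42 ± 0.34 for bleomycin against PBS and 0.75 ± 0.34 for celastrol against PBS. Without PBS 2 these were 0.02 and 0.35, and without PBS 3 they were 0.82 and 1.15. Tyr, the rate-limiting enzyme of melanin synthesis (chromosome 7, 87424771 to 87493512, - strand), stood at 204 and 318 in PBS, at 308, 422 and 379 in bleomycin and at 451, 187 and 405 in celastrol libraries. The 3 groups overlapped in Tyr, and Celastrol 3 was below both PBS libraries. Its fitted difference from PBS was 0.52 ± 0.41 for bleomycin and 0.35 ± 0.41 for celastrol, and with 1 library left out it ran from 0.20 (without PBS 2) to 0.84 (without PBS 3) and from 0.03 (without PBS 2) to 0.75 (without Celastrol 3).

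**Figure D1:**
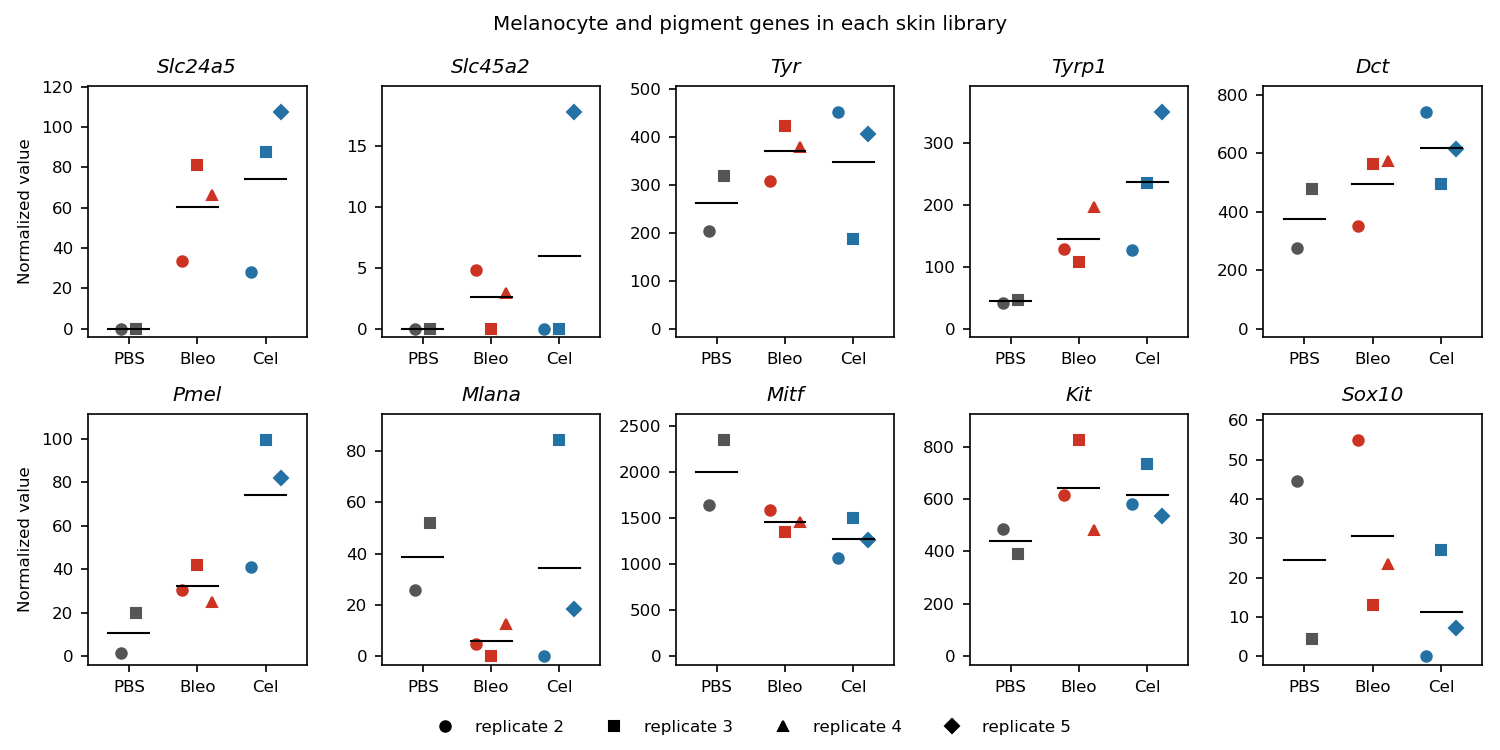
Normalized value (linear axis, 0 included) of each of the 10 genes in every library, by group; symbols give the replicate number of the labels and black lines the group means (n = 2 for PBS, n = 3 for bleomycin (Bleo) and celastrol (Cel)). Slc24a5 is at 0 in both PBS libraries and between 27.9 and 107 in the others, and Tyrp1 is at 41.0 and 46.3 in PBS and between 107 and 350 elsewhere.

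Of the structural genes, Pmel (chromosome 10, 128704195 to 128720238, + strand) stood at 1.39 and 19.9 in PBS 2 and 3, at 30.3, 41.8 and 25.0 in Bleomycin 2, 3 and 4, and at 41.0, 99.5 and 81.8 in Celastrol 2, 3 and 5. The PBS 2 value was below that of 3 reads, estimated at 2.09 in this library. Both PBS libraries were below the rest, and Bleomycin 3 at 41.8 was just above Celastrol 2 at 41.0. The fitted difference from PBS was 2.21 ± 1.03 for bleomycin and 3.32 ± 1.03 for celastrol, and it rested on PBS 2, without which it was 0.65 and 1.76. Without PBS 3 the differences of Pmel were 3.77 and 4.88.

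Mlana (chromosome 19, 29697824 to 29708634, + strand) was lower in bleomycin than in PBS libraries. It stood at 25.7 and 51.9 in PBS 2 and 3, at 4.82, 0 and 12.5 in Bleomycin 2, 3 and 4, and at 0, 84.4 and 18.5 in Celastrol 2, 3 and 5. The 3 bleomycin libraries were below both PBS libraries, and the celastrol libraries ran from 0 to 84.4, across both other groups. The fitted difference for bleomycin against PBS was -3.13 ± 1.84 (-2.08 without Bleomycin 3), with 0 listed in Bleomycin 3 and Celastrol 2, where 3 reads were worth 3.92 and 4.92.

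Ratios between these genes within a library do not depend on how the libraries were scaled. The ratio of the Tyrp1 value to the Dct value was 0.15 and 0.0971 in PBS 2 and 3, 0.367, 0.190 and 0.343 in Bleomycin 2, 3 and 4, and 0.170, 0.473 and 0.568 in Celastrol 2, 3 and 5. Both PBS libraries had a lower ratio than every other library. The ratio of Pmel to Dct was 0.00507 and 0.0416 in PBS and 0.0436 to 0.201 in the other libraries, and here too the groups did not overlap, with PBS 3 and Bleomycin 4 close together. The Pmel value of PBS 2 in this ratio was below that of 3 reads. The ratio of Tyr to Dct, 0.743 and 0.666 in PBS and 0.378 to 0.877 in the others, overlapped. Tyrp1 and Pmel were thus lower relative to Dct in PBS libraries, while Tyr relative to Dct overlapped. No ratio is given for Mlana, whose values were lower in bleomycin than in PBS libraries. The genes of these ratios were chosen with their values known. How often ratios of other genes set PBS apart was not counted.

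**Figure D2:**
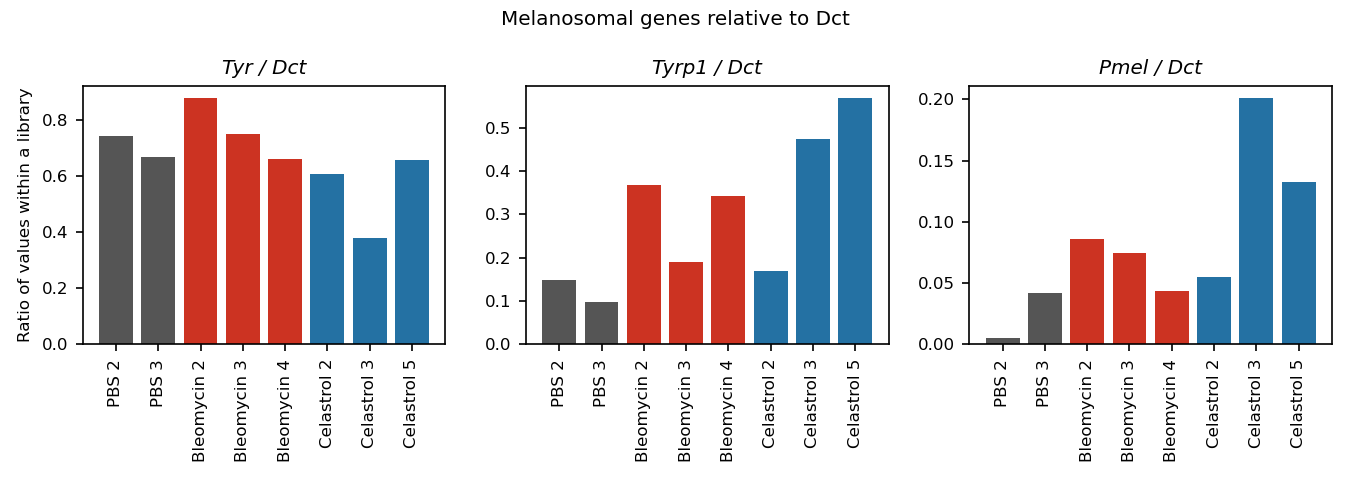
Ratio of the normalized values of Tyr, Tyrp1 and Pmel to that of Dct within each library (bars, linear axes from 0; grey PBS, red bleomycin, blue celastrol). The Tyrp1 ratio is 0.15 or less in both PBS libraries and 0.170 or more in the others, while the Tyr ratio overlaps between groups.

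Summed over the 7 melanosomal genes (Slc24a5, Slc45a2, Tyr, Tyrp1, Dct, Pmel and Mlana), the normalized values were 546 and 913 in PBS, 861, 1215 and 1256 in bleomycin and 1388, 1188 and 1597 in celastrol libraries. The celastrol sums were above both PBS sums, and Bleomycin 2 lay between the PBS libraries. Dct had the highest value of the 7 in every library, so the sums say little of genes at low values such as Mlana. In bulk skin, fewer melanocytes and less RNA per melanocyte cannot be told apart. The genes written for growing hair, in which follicle melanocytes make pigment, summed to 314 to 775 in PBS, 378 to 711 in bleomycin and 295 to 607 in celastrol libraries. Of the 23 genes on that list 8 were in the table, and the hair shaft keratins on it were not analysed here. Krt25, Krt27, Krt28 and Hoxc13 were listed at 0 in at least 1 library. Tchh, Dlx3 and Msx2 had the highest means of that list, at 155, 111 and 87.3. No gene on it passed the threshold in limma in any comparison, and the part of hair growth in the pigment gene levels was not tested.

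Of the regulators, Mitf (chromosome 6, 97807052 to 98021349, + strand) had values of 1638 and 2347 in PBS 2 and 3, of 1583, 1345 and 1451 in Bleomycin 2, 3 and 4, and of 1062, 1500 and 1260 in Celastrol 2, 3 and 5. Both PBS libraries were above all others, with PBS 2 at 1638 and Bleomycin 2 at 1583 close to each other. The fitted difference from PBS was -0.43 ± 0.22 for bleomycin and -0.64 ± 0.22 for celastrol. Without PBS 3 these were -0.17 and -0.38, and without PBS 2 they were -0.69 and -0.90. RefSeq gives Mitf 3 starts, at 97807058, 97929817 and 97991783, and the 1 row of the gene does not tell their transcripts apart.

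Kit (chromosome 5, 75574916 to 75656722, + strand) stood at 487 and 392 in PBS, at 615, 826 and 481 in bleomycin and at 581, 734 and 535 in celastrol libraries. The celastrol libraries were above both PBS libraries, and Bleomycin 4 at 481 lay between them. The fitted difference was 0.52 ± 0.29 for bleomycin (0.32 without Bleomycin 3) and 0.48 ± 0.29 for celastrol (0.33 without PBS 3). Mast cells also carry KIT and MITF. The 13 mast cell markers summed to 5539 to 6391 in PBS, 6091 to 8395 in bleomycin and 8148 to 8449 in celastrol libraries, with none at 0 in any library. The mast cell proteases Cpa3, Mcpt4 and Cma1 were the most abundant of them. In limma 0 of the 13 passed in any comparison, with 2, 0 and 6 at an unadjusted p below 0.05 for bleomycin against PBS, celastrol against bleomycin and celastrol against PBS, where 6.82%, 3.87% and 12% of all genes tested were below it. The part of mast cells in the Kit and Mitf values was not tested.

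Sox10 (chromosome 15, 79154908 to 79165240, - strand) was low and scattered. It stood at 44.5 and 4.41 in PBS, at 55.1, 13.1 and 23.5 in bleomycin and at 0, 27.0 and 7.12 in celastrol libraries, so the 3 groups overlapped. Schwann cells of skin nerves also express Sox10, and the 14 Schwann cell markers summed to 9928 and 11412 in PBS, to 8052 to 12445 in bleomycin and to 9161 to 10157 in celastrol libraries, of which 1, Ncmap, was listed at 0 in some library. Scn7a, Pmp22 and Egr2 had the highest means among them, and 0 of the 14 passed in limma in any comparison, with 1, 0 and 2 at an unadjusted p below 0.05 in the same order of comparisons and against the same shares of all genes. The part of Schwann cells in the Sox10 values was not tested.

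Per kilobase of annotated exon, Mitf and then Dct had the highest mean levels in all 3 groups. Mitf stood at 322 ± 80.8 (n = 2) per kilobase in PBS, 236 ± 19.3 (n = 3) in bleomycin and 206 ± 35.4 (n = 3) in celastrol libraries, and its range lay above that of every other gene. Dct came next in each group, at 63.8, 84.1 and 105, and did not stand apart from the gene after it. Tyrp1 was the sixth in PBS at 15.4 per kilobase, the fifth in bleomycin at 51.0 and the third in celastrol at 83.8. In celastrol libraries the ranges of Dct, Tyrp1, Kit and Tyr each overlapped with that of the next in order. Slc45a2 was at or near the bottom throughout, at 0 in PBS, 0.867 in bleomycin and 1.99 in celastrol libraries.

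In the fit over all genes, 1 of the 9 genes tested, Slc24a5, passed the threshold (limma, Benjamini-Hochberg adjusted p below 0.05) for bleomycin against PBS, where 0.677% of all genes were called (0.453% higher), and the same gene for celastrol against PBS, where 1.37% were called (0.824% higher). The call of Slc24a5 for bleomycin was absent without any 1 of PBS 2, PBS 3, Bleomycin 3, Bleomycin 4 and Celastrol 5, and for celastrol without any 1 of PBS 2, PBS 3 and Celastrol 5. For celastrol against bleomycin 0 of 9 passed, 0% of all genes were called, and 0 of the 9 had an unadjusted p below 0.05, beside 3.87% of all genes. At that unadjusted level there were 2 of the 9 for bleomycin against PBS and 5 of the 9 for celastrol against PBS, beside 6.82% and 12% of all genes. Since the genes were chosen with these results known, nothing is read from the counts. Groups did not overlap in 3 genes that were higher (Slc24a5, Tyrp1 and Pmel) and 2 that were lower (Mlana and Mitf) for bleomycin against PBS, where 12% of all genes tested were higher and 11.6% lower without overlap (23.6% in all). For celastrol against PBS they were 5 higher (Slc24a5, Tyrp1, Dct, Pmel and Kit) and 1 lower (Mitf), beside 13.2% and 13.7% of all genes (26.9% in all). For celastrol against bleomycin all 9 genes overlapped, beside 4.13% of all genes that were higher and 4.59% that were lower without overlap (8.73% in all). These comparisons share libraries, and the values of each gene in both treated groups were set against the same PBS pair.

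The median fitted difference over the 9 genes was 0.52 for bleomycin against PBS, 0.18 for celastrol against bleomycin and 0.48 for celastrol against PBS, beside medians over all genes tested of -0.00, -0.04 and -0.07. Leaving out Slc24a5, the median over 8 genes was 0.52, 0.15 and 0.42. The fitted difference of Slc24a5, and those of other genes at low values, depend on the constant added before the logarithm. Between celastrol and bleomycin the differences of these 8 ran from -2.14 (Sox10) to 1.47 (Mlana), with SE of 1.39 and 1.65. With a constant of 0.1 Sox10 stood at -3.26 and Mlana at 1.55, and with 10 at -0.997 and 1.00. Both ends rested on single libraries, since Sox10 was at -0.83 without Celastrol 2 and at -3.24 without Celastrol 3, and Mlana at 3.25 and 0.04. Tyrp1 stood at 0.64 ± 0.48 (0.30 without Celastrol 5), Pmel at 1.11 ± 0.92 and Tyr at -0.17 ± 0.37 there, with Tyr at 0.22 without Celastrol 3.

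**Figure D3:**
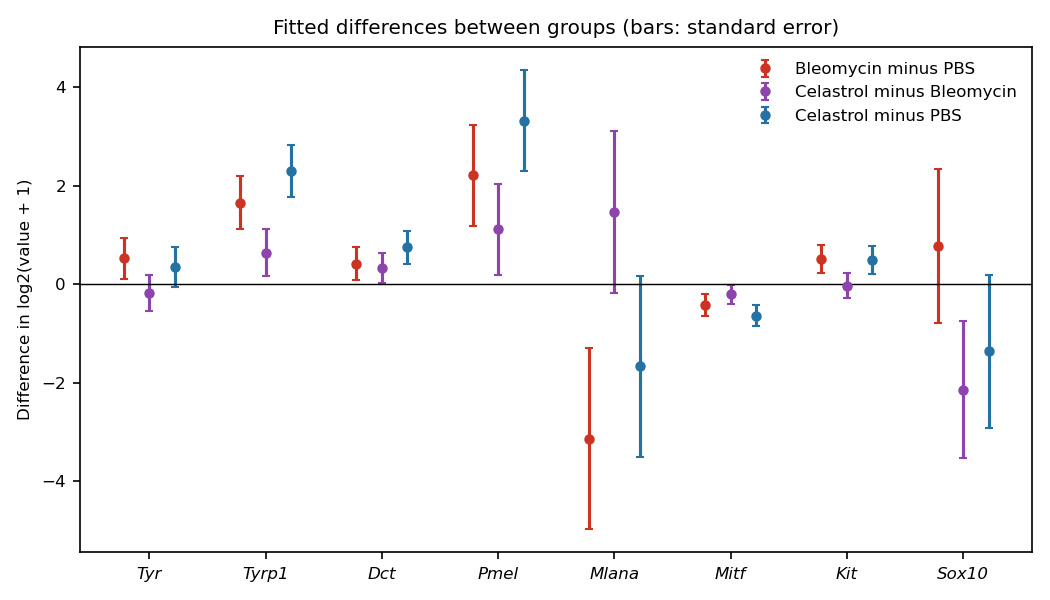
Fitted differences between groups on the scale of log2(value + 1) for the 8 genes fitted other than Slc24a5, with bars of 1 standard error from limma. Tyrp1 and Pmel lie above 0 against PBS in both treated groups, Mitf lies below 0, and the bars of Mlana and Sox10 are the widest.

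Other genes of pigmentation were examined as well. Of 61 genes on 3 lists (melanosome formation and transport, regulators of the melanocyte lineage, and signals between skin and melanocytes), 54 were in the table and 53 were tested. In limma 0 of the 53 passed in any of the 3 comparisons, beside 0.677%, 0% and 1.37% of all genes, with 7, 1 and 6 at an unadjusted p below 0.05, beside 6.82%, 3.87% and 12% of all genes. Their median difference was 0.04 for bleomycin against PBS, -0.07 for celastrol against bleomycin and -0.17 for celastrol against PBS. Without overlap between groups, 4 of the 53 were higher and 8 lower for bleomycin against PBS, beside 12% and 11.6% of all genes. For celastrol against PBS these were 6 and 9, beside 13.2% and 13.7%. For celastrol against bleomycin they were 4 and 2, beside 4.13% and 4.59%.

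Among 27 genes of melanosome formation and transport, 16 were above 0 and 11 below for bleomycin against PBS, with a median of 0.04. Gpnmb, a melanosomal glycoprotein that macrophages also make, had values of 3063 and 2281 in PBS, of 2013, 935 and 1016 in bleomycin and of 793, 1721 and 1196 in celastrol libraries. PBS was above both other groups, with a difference of -1.09 ± 0.38 for bleomycin (limma adjusted p = 0.425) and -1.17 ± 0.38 for celastrol (limma adjusted p = 0.216). Rab27a, which tethers melanosomes to the transport machinery, stood at 887 and 847 in PBS and at 514 to 749 in the other libraries, a difference of -0.56 for bleomycin (limma adjusted p = 0.704) and -0.55 for celastrol (limma adjusted p = 0.416). Slc7a11, the cystine transporter that feeds the making of red-yellow melanin, was at 280 and 407 in PBS and at 1765 in Bleomycin 3, where the other bleomycin libraries were at 385 and 589, and its difference of 1.13 did not pass (limma adjusted p = 0.729). The Slc7a11 difference for celastrol against PBS was 1.10 ± 0.51 (limma adjusted p = 0.431), and the celastrol libraries lay above both PBS libraries. Rab38, which delivers TYR and TYRP1 to melanosomes, ran from 670 to 876 in celastrol libraries, above the 408 to 597 of bleomycin and the 442 and 480 of PBS. Its difference for celastrol against bleomycin was 0.66 ± 0.23 (limma adjusted p = 0.975). Cd63, a membrane protein of melanosomes and many other vesicles, stood at -0.48 for bleomycin against PBS (limma adjusted p = 0.76). For celastrol against bleomycin, the lysosomal channel gene Mcoln3 stood at -2.55, the cysteine transporter gene Mfsd12 at -1.05 and the Hermansky-Pudlak gene Hps1 at -0.60, with limma adjusted p of 0.975 each.

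Among the regulators, Irf4, a factor that acts with MITF on Tyr in humans and is also made by immune cells, stood at 650 and 662 in PBS, at 359, 404 and 256 in bleomycin and at 313, 376 and 260 in celastrol libraries. Both treated groups were below PBS, by a difference of -0.97 ± 0.30 (limma adjusted p = 0.295) for bleomycin and -1.07 ± 0.30 (limma adjusted p = 0.148) for celastrol. Tfec, a relative of Mitf that macrophages make, was at 84.2 and 36.4 in PBS and at 130 to 278 in bleomycin libraries, a difference of 1.89 (limma adjusted p = 0.675), while Celastrol 2 at 44.3 lay within the PBS range. Tfap2b, a factor of neural crest and epidermis, stood at -0.61 for bleomycin (limma adjusted p = 0.77) and -0.78 for celastrol (limma adjusted p = 0.29) against PBS. Tfap2a stood at -0.24 and -0.54 in the same comparisons (limma adjusted p of 1 and 0.473). For celastrol against bleomycin the survival gene Bcl2 was at -0.33, the Notch target Hes1 at 0.42 and the neural crest factor gene Snai2 at 0.42, with limma adjusted p of 0.975 each. Over all 14 regulators tested the median was -0.09 for bleomycin and -0.29 for celastrol against PBS.

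Among signals and their receptors, Ednrb, the endothelin receptor that melanocytes share with endothelium and other cells, stood at 1048 and 1102 in PBS, at 470, 682 and 588 in bleomycin and at 402, 740 and 522 in celastrol libraries. PBS was above both groups, with differences of -0.91 ± 0.29 (limma adjusted p = 0.326) and -1.0 ± 0.29 (limma adjusted p = 0.163). Nrg1, a ligand of ERBB3 on neural crest cells, was at 87.6 and 47.4 in PBS, at 123, 532 and 268 in bleomycin and at 263, 194 and 226 in celastrol libraries. Its differences of 1.99 ± 0.58 and 1.79 ± 0.58 did not pass (limma adjusted p of 0.241 and 0.219). The ubiquitin ligase gene Mgrn1, whose loss darkens the mouse coat, stood at -0.66 and -0.73 (limma adjusted p of 1 and 0.597). Kitl, the ligand of KIT, was at 1398 and 1375 in PBS, at 1693, 965 and 1983 in bleomycin and at 1909, 1856 and 1630 in celastrol libraries, and its difference for celastrol against bleomycin was 0.28 ± 0.25 (limma adjusted p = 0.975). For celastrol against bleomycin Edn3, Corin and Mc1r, the receptor for melanocortin, stood at -2.09, -2.26 and 1.58, with SE of 1.19, 1.42 and 1.1, and Mc1r was at 85.8 in Celastrol 2 and at 20.9 or less in every other library. The ligand genes Pomc and Asip were not analysed here.

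**Figure D4:**
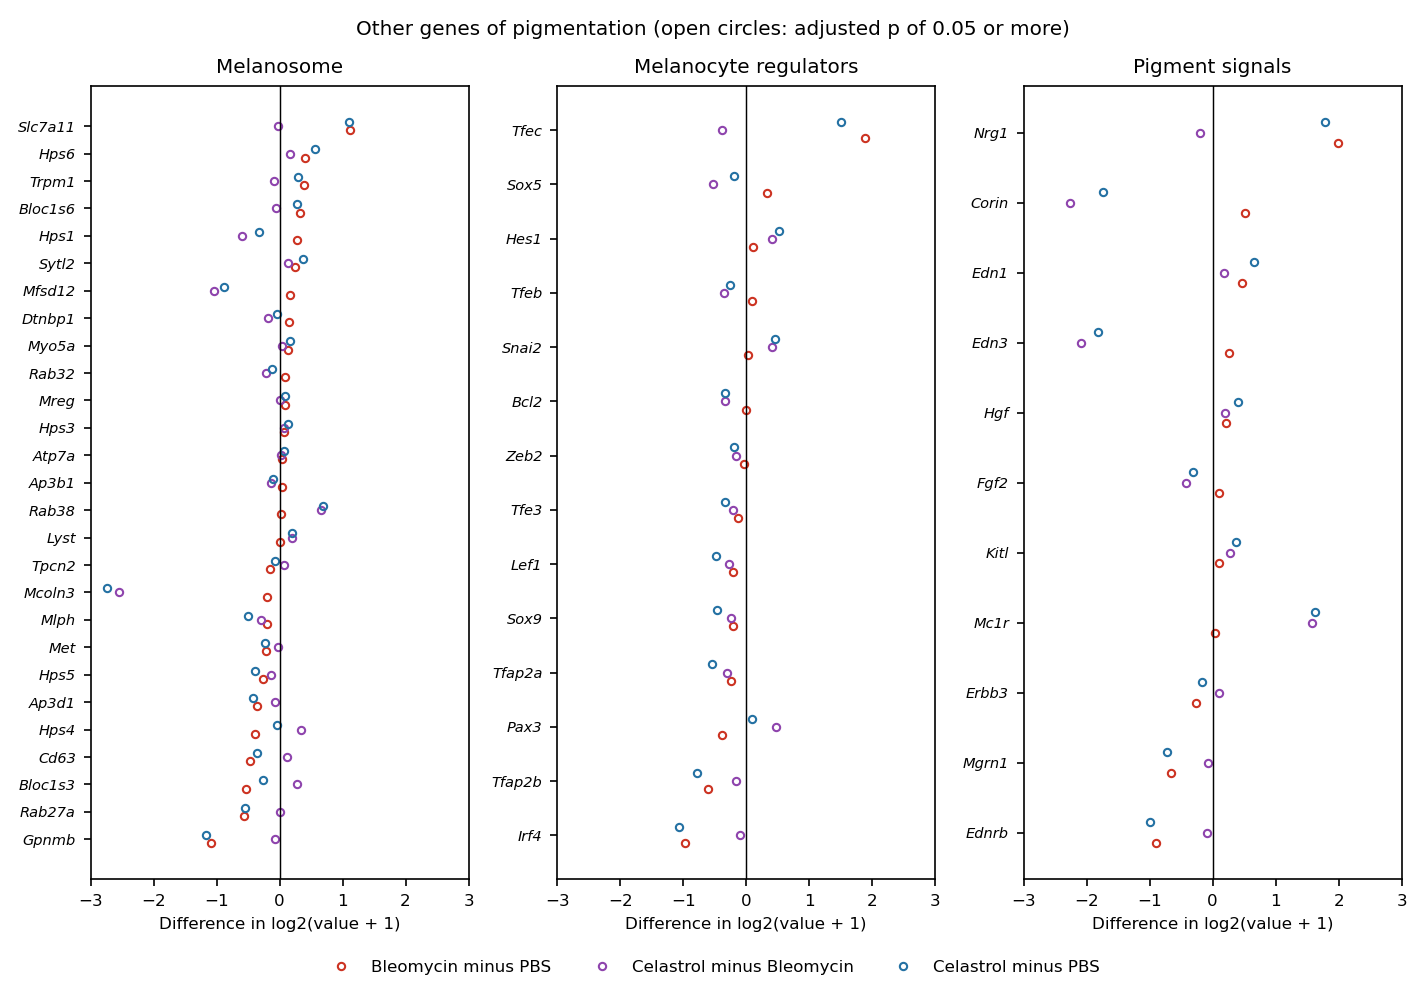
Fitted differences on the scale of log2(value + 1) for further genes of pigmentation in 3 lists, ordered by the difference of bleomycin from PBS. Open circles mark an adjusted p of 0.05 or more, which holds for every point; Gpnmb, Irf4 and Ednrb lie lowest in their lists for bleomycin against PBS, and Slc7a11, Tfec and Nrg1 highest.

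Likeness to the pigment genes was measured as the root mean square difference, over the 8 libraries, between a gene's log2(value + 1) about its own mean and the mean profile of the 6 melanosomal genes tested. That profile ran from -1.64 in PBS 2 and -0.69 in PBS 3 to 1.15 in Celastrol 3 and 1.13 in Celastrol 5. Slc24a5, at 0 in both PBS libraries, is among the 6. The profile in PBS therefore depends in part on the constant added before the logarithm. Distances of other genes rest on the same profile, and none was measured with Slc24a5 left out. The median deviation over these 6 genes was -1.20 in PBS 2 and -0.28 in PBS 3. Tyrp1, at 0.324, and Mlana, at 2.32, are themselves among the 6 genes averaged, so their distances are partly fixed by the measure and are not comparable with those of genes outside it. Of the 3 genes not averaged, Kit was at 0.805, Mitf at 1.03 and Sox10 at 2.02. Among 13383 other genes with a mean of at least 50 the nearest were Thyn1 at 0.359, the interferon-inducible GTPase gene Gvin1 at 0.371, Eda2r, a receptor gene of the tumour necrosis factor family, at 0.383, the angiopoietin gene Angpt2 at 0.398, Tmem38b at 0.401, Ms4a6c at 0.404, the macrophage lysosomal gene Cd68 at 0.404 and Asb15 at 0.411, where the median over these genes was 0.938. Thyn1 stood at 89.0 and 119 in PBS, at 247, 264 and 262 in bleomycin and at 217, 327 and 344 in celastrol libraries. Cd68 is on the macrophage list, and none of the 8 is on the pigment lists.

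Markers of other cell types differed between the groups beside these results. Summed markers of dermal fibroblasts (9 genes) were at 359341 and 766841 in PBS, at 34567 to 107859 in bleomycin and at 32601 to 80276 in celastrol libraries, and those of skeletal muscle (12 genes) at 89127 to 118926, 114706 to 204782 and 211485 to 286889. In limma 6 of 9 fibroblast genes fell for bleomycin against PBS and 7 of 9 for celastrol against PBS, beside 0.224% and 0.543% of all genes that were called lower. Those that fell in both were Col3a1, Dpt, Prrx1, Lum, Col1a2 and Dcn, genes of the dermal matrix and its fibroblasts, with differences from -1.30 (Prrx1, celastrol) to -4.78 (Col1a2, celastrol), and Col1a1 also passed for celastrol, at -5.48 ± 1.06. With 1 library left out, each of these calls was lost in 4 to 6 of 8 fits and the direction was kept: every bleomycin call was lost without PBS 2, PBS 3, Bleomycin 3 or Bleomycin 4, and every celastrol call without PBS 2, PBS 3, Celastrol 2 or Celastrol 5. Of 12 muscle genes Myh1 rose for bleomycin, by 1.31 ± 0.25, and Myh1, Tnni2, Tnnc2, Myh4, Tnnt3 and Actn3 rose for celastrol, by 1.26 to 2.30; Atp2a1 was among the 3 most abundant and did not pass. The call of Myh1 for bleomycin held in 2 of 8 such fits, those without Celastrol 2 or Celastrol 3. The celastrol calls of muscle genes were lost in 2 (Tnni2 and Tnnc2) to 6 (Actn3) of 8, each of them without Celastrol 5. In the macrophage list (sums 21166 to 24364, 24339 to 31786 and 19434 to 29209) Fcgr1 rose against PBS, 1 of 12 genes in each treated group, and the most abundant genes Mrc1, Lyz2 and Cd163 did not pass. Fcgr1 stood at 4.05 ± 0.73 for bleomycin, 2.37 without PBS 3 and 5.73 without PBS 2, and at 4.18 ± 0.73 for celastrol, 2.50 and 5.86; its call was lost in 6 of 8 fits for bleomycin (all but those without PBS 2 or Bleomycin 2) and in those without Celastrol 2 or Celastrol 5 for celastrol. Of 10 genes of the resting follicle and bulge (sums 45210 to 46232, 36568 to 44369 and 37648 to 47363) Cd34, which dermal fibroblasts also carry, fell in each, a call lost in 5 of 8 fits for bleomycin (kept without Bleomycin 2, Celastrol 3 or Celastrol 5) and in 6 of 8 for celastrol (kept without Bleomycin 2 or Bleomycin 3), while the most abundant genes Postn, Itga6 and Krt15 did not pass. Of 9 keratinocyte genes (sums 197274 to 430745, 192338 to 404114 and 255451 to 347624), of which Krt10, Dsg1a and Krt1 were the most abundant, 0 passed. No marker of the fibroblast, muscle, macrophage, follicle and keratinocyte lists was at 0 in any library, and their part in the pigment gene levels was not tested. Celastrol 2 stood apart from all other libraries on principal component 1, and without it the difference of celastrol from PBS was 2.69 for Tyrp1, which then passed the threshold, and 3.69 for Pmel.

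**Figure D5:**
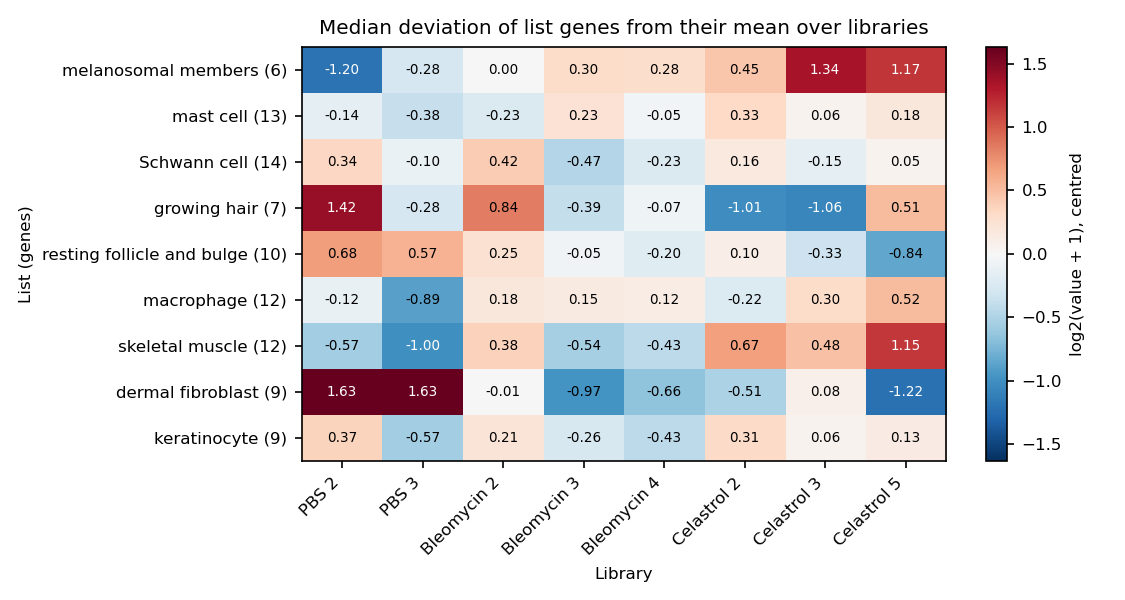
Median deviation of the genes of each list from their own mean over the 8 libraries, on the scale of log2(value + 1), with the number of genes tested in brackets. The melanosomal genes are lowest in PBS 2 at -1.20 and highest in Celastrol 3 at 1.34, and the dermal fibroblast markers are at 1.63 in both PBS libraries and at 0.08 or less in the others.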

How the data were processed

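RNA was measured in 8 skin libraries, 2 PBS, 3 bleomycin and 3 celastrol. What the authors deposited is a linear signal for every gene: its reads over a size factor of the library, made with DESeq2 (poscounts), as the table's own name says. The submitters' processing notes list the programs Partek 10.0.22, STAR 2.7.3a and DESeq2 of the authors, and the build mm10. Settings, annotation and use of strand are not given in the sources used here. Library sums were 22.9 to 26.4 (in units of 1e6), and the depth estimated from the value of 1 read was 14.9 (Celastrol 3) to 37.1 (Celastrol 5) in units of 1e6 reads. Of values under 1000 reads, 58.9% to 67.6% per library lay within 0.03 of a whole read, so counts were not recovered. No gene had a maximum under 10.3. No library duplicated another of its group (0% identical values).

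Group differences came from limma 3.58.1 in R 4.3.3 (lmFit, eBayes with a trend) on log2(value + 1), all 8 libraries in 1 fit without covariates, for 23185 genes at 10 or more in at least 2 libraries; tests were two-sided, Benjamini-Hochberg adjusted over all of them, with a threshold of 0.05. The procedure was run on simulated data with normal noise and with changes placed only in genes at higher mean values. That run does not speak for genes at low values, and nothing is read from it here. The 10 genes, the other lists and the comparisons were chosen with earlier results of these data known. Genes named were the 10, pathway genes with the 4 smallest p per list and comparison, the 3 most abundant and any called markers of each cell type, and the 8 most alike genes (predicted genes left out); 1 gene that the rule names is not reported here. Exon lengths and overlaps are from GENCODE M21 and promoters from RefSeq GRCm38.p6. Alternatives varied the pseudocount (0.1, 10), the filter, the libraries, scaling, weights and a replicate block.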

Additional observations from a re-analysis of the deposited data

How the results depend on the processing

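Over all genes, the number called for bleomycin against PBS was 157 and moved to 46 with only the 2 groups compared, 711 with library weights, 17 with the replicate number as a block and 0 without Bleomycin 3, Celastrol 2 and Celastrol 3 together; with 1 library left out it ran from 16 to 229. For celastrol against PBS 317 became 159, 398, 41 and 4 in these fits, and 38 to 418 with 1 library left out. For celastrol against bleomycin 0 were called, and 0 to 1 with 1 library left out. Of the further pigment genes 0 were called in every fit except 3 for bleomycin against PBS with library weights (Gpnmb, Irf4 and Nrg1). Tyrp1 passed for both treated groups against PBS with library weights and for celastrol against PBS without Celastrol 2, and in no other fit. Slc24a5 passed for bleomycin against PBS as reported and did not without PBS 2, PBS 3, Bleomycin 3, Bleomycin 4 or Celastrol 5, without the 3 libraries named above, with a pseudocount of 10, a minimum of 50, only the 2 groups or the replicate block; for celastrol against PBS it did not pass without PBS 2, PBS 3, Celastrol 5 or the 3 libraries, with only the 2 groups or with the block. The fitted difference of Slc24a5 for bleomycin was 9.15 with a pseudocount of 0.1 and 2.75 with 10. Those of Mlana were -4.32 and -1.65 and those of Pmel 2.54 and 1.18, while Tyr stood at 0.52 and 0.51. The median difference over the pigment genes was 0.52 for bleomycin against PBS (0.42 to 0.82 with 1 library left out, 0.71 with the replicate block), 0.18 for celastrol against bleomycin (-0.05 to 0.42, -0.08 with the block) and 0.48 for celastrol against PBS (0.35 to 0.75, 0.58 with the block). Library numbers shared between groups were not taken as pairs, and their correlations of deviations ran from -0.00 to 0.20. Of 6 libraries, 5 correlated best with their own number. Deviations were taken from group means, so those of the 2 PBS libraries mirror each other, and mutual best matches count from both sides. Nothing is therefore read from the 5 of 6. In the block fit, Bleomycin 4 and Celastrol 5 carry numbers that no other library has, so they added nothing to the group differences. For bleomycin against PBS its differences were those without Bleomycin 4 (Slc24a5 at 5.74 in both). For celastrol against PBS they were those without Celastrol 5 (Tyrp1 at 1.96 in both). Beyond this, the cause of the moves listed was not tested.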
